A study of Mus musculus with 24 samples.

Results

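The SRCAP complex is a chromatin remodeler, and 9 genes for its subunits were followed here through 24 RNA libraries from mouse bone marrow: Srcap, Znhit1, Ruvbl1, Ruvbl2, Actl6a, Actr6, Vps72, Dmap1 and Yeats4. They were chosen by name as subunits of the complex from the 55414 genes in the deposited files. No measured value set the choice, but earlier results of these data were known when it was made. All 9 were matched to a gene ID, all 9 had reads in every library, and all 9 passed the filter on low counts in every fit.

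As background, the SRCAP complex swaps canonical H2A for the histone variant H2A.Z in nucleosomes near promoters and enhancers. Srcap is the catalytic ATPase and the scaffold on which the other subunits assemble. Znhit1 and Actr6 belong to this complex and are needed for the exchange step, whereas the remaining subunits are shared: Vps72, which holds H2A.Z, with Dmap1 and Yeats4 also sits in the TIP60-p400 acetyltransferase complex, the paired AAA+ ATPases Ruvbl1 and Ruvbl2 also serve TIP60-p400, INO80 and the R2TP assembly chaperone, and the actin-related protein Actl6a is also part of INO80, TIP60-p400 and the BAF remodelers.

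All animals were of the C57BL6/J strain and either WT or Srcap mutant, and each of the 12 groups held 2 libraries. Hematopoietic stem and progenitor cells (HSPCs) came from untreated animals, from animals 12 hours after intraperitoneal doxorubicin (a drug that breaks DNA by trapping topoisomerase II), from animals 2 weeks after transplantation, and from donor cells 20 weeks after competitive transplantation. Libraries labelled B cells and libraries labelled T cells, both from bone marrow, were taken at 2 weeks in both genotypes. The title of the series places the mutation in clonal hematopoiesis, the expansion of a single mutant stem cell's descendants. The labels give no allele for the Srcap mutation. The file headers name it only as het for untreated, doxorubicin and 20-week HSPCs and as Mut for the 2-week libraries, so neither the zygosity at 2 weeks nor the protein change can be stated here. Sample titles call the untreated mice germline, no ages are given, and the protocol text speaks of 30000 sorted HSPCs for every library, B and T labels included.

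Total counts ran from 26369992 to 78432483 per library, and each subunit was supported by 200 to 9313 reads. Levels below are CPM, counts scaled to a library total of 1000000. Log2 changes are fitted by edgeR after TMM scaling between libraries, carry a standard error (SE), and are called where the Benjamini-Hochberg adjusted p over all genes tested is below 0.05. Nothing in the labels says that the 2 libraries of a group came from separate animals, so p-values measure the spread between these libraries, which may be technical. The HSPC libraries carried HSPC markers at 1123 to 3265 CPM summed over 7 genes, and the B-labelled libraries carried 7 B cell markers at 7012 to 9467 CPM. The libraries labelled T cells did not carry a T cell profile. In them 7 T cell markers summed to 12.8 to 18.1 CPM, below every HSPC and B-labelled library. Elsewhere Lck made up most of this sum, at 31.0 to 92.3 CPM in HSPCs and 40.5 to 49.5 CPM in B-labelled libraries. In T-labelled libraries Lck was at 2.81 to 4.66 CPM, and none of the 7 was at 0 in any of them. Cd3d went the other way, at 7.44 to 8.76 CPM against at most 6.66 CPM in B-labelled and 2.49 CPM in HSPC libraries. In the T-labelled libraries 8 neutrophil granule genes took 13.3% to 15.4% of all counts. They are therefore called T-labelled libraries throughout. In 1 library, WT untreated replicate 1, the same neutrophil genes reached 23275 CPM, against at most 398.7 CPM in the other untreated libraries. Xist, expressed from the inactive X chromosome of females, stood at 320 to 1540 CPM in every 2-week library and at 0.0 to 0.484 CPM elsewhere, so at 2 weeks the Xist level, a marker of sex, and the transplantation cannot be told apart. The paths in the file headers also fall into 3 directories, 1 for untreated and doxorubicin, 1 for all 2-week and 1 for all 20-week libraries, so contrasts of 2 or 20 weeks with untreated HSPCs or with each other are contrasts of directories too, and these cannot be told apart from the condition. In bulk RNA, fewer cells of a type and less RNA per cell cannot be told apart either.

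The counts for Srcap describe only part of its transcript. Srcap (ENSMUSG00000053877) lies on the plus strand of chromosome 7 at GRCm39 chr7:127111155-127160391, and Gm42715 (ENSMUSG00000107023), an overlapping gene model on the same strand at chr7:127118756-127166226, shares 9738 of the 15783 annotated exon bases of Srcap. Per the file headers, reads were counted by exon and strand without the option that assigns a read to several genes, so reads in exons of both genes were left uncounted. Reads for Srcap therefore come from the other 6045 exon bases, 38.3% of the total, the last of which lies 28.5 kb into a gene that spans 49.2 kb. The final 6341 exon bases, 40.2%, hold no base that belongs to Srcap alone. Comparisons of Srcap between libraries therefore read its 5′ part. Gm42715 itself was counted at 0.593 to 6.4 CPM. No other subunit shares exon bases with a gene on its own strand. Genes on the opposite strand overlap 28.4% of the exon bases of Znhit1, 15.4% of Ruvbl2, 11.6% of Actl6a and 5.23% of Srcap, and the counting used strand.

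The other subunits lie apart from Srcap in the GRCm39 annotation. Ruvbl2 is also on chromosome 7, at chr7:45071184-45087520 on the minus strand. Ruvbl1 is at chr6:88442391-88474554 (plus) and Znhit1 at chr5:137011018-137016875 (minus). Actl6a, at chr3:32760447-32781122, and Vps72, at chr3:95018333-95030362, are both on the plus strand of chromosome 3. Actr6, at chr10:89547833-89568157, and Yeats4, at chr10:117051126-117060412, are both on the minus strand of chromosome 10, and Dmap1 is at chr4:117531878-117539470 (minus).

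**Figure D1:**
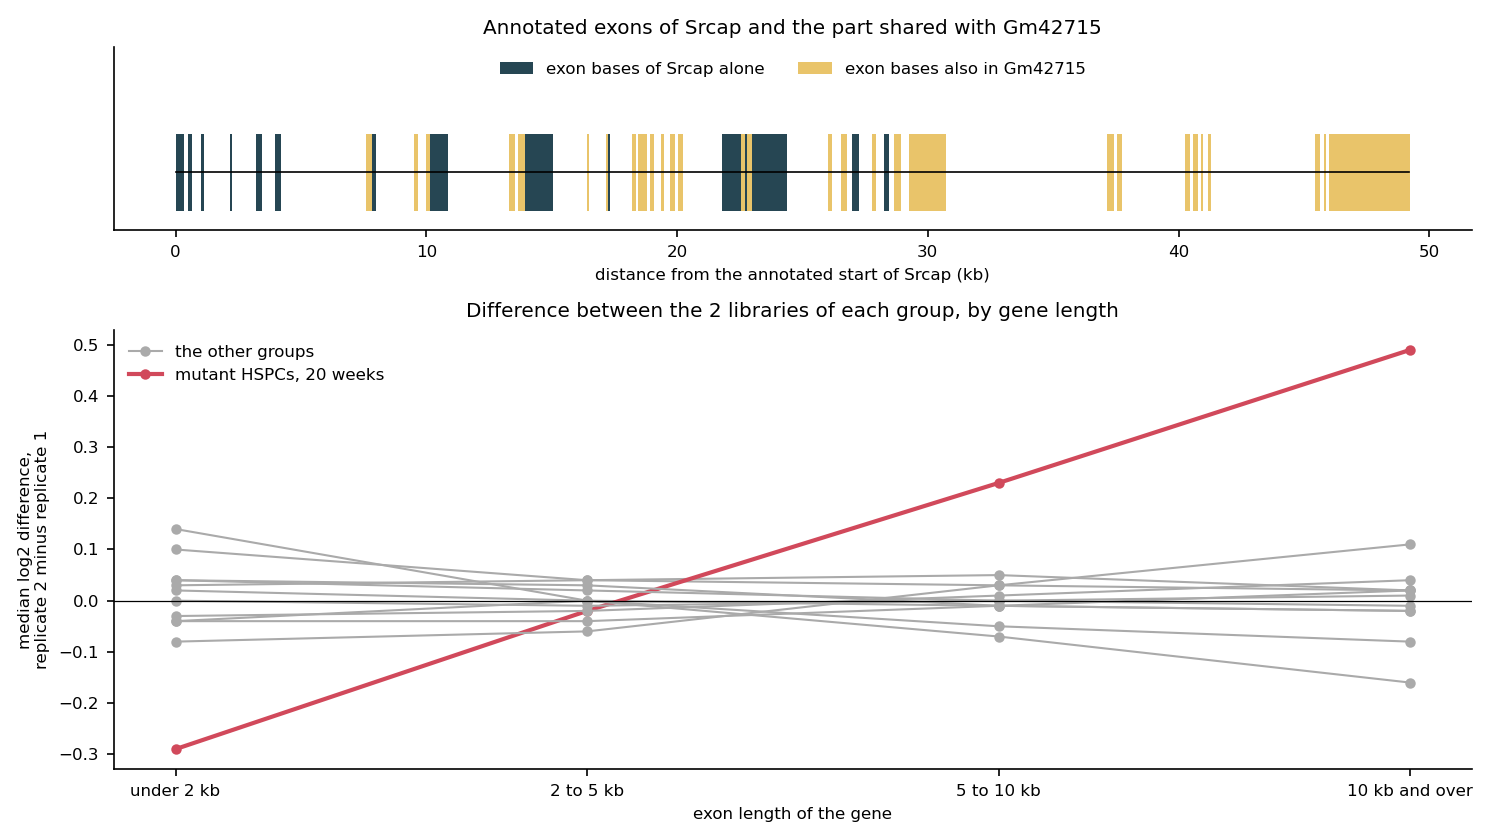
Top: annotated exons of Srcap by distance from its annotated start in kb, dark where the exon bases belong to Srcap alone and yellow where Gm42715 shares them; the last dark block ends at 28.5 kb. Bottom: median log2 difference between the 2 libraries of each of the 12 groups for genes in 4 classes of exon length; the mutant 20-week group runs from -0.29 to 0.49 and every other group stays between -0.16 and 0.14.

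Per length, the 9 transcripts were far from equal, although their proteins work in 1 complex. In untreated HSPCs Yeats4, a YEATS-domain reader of acylated histones, was the most abundant at 59.0 ± 3.93 CPM per kb of exon (SD over 4 libraries of both genotypes). Ruvbl1, Actl6a and Ruvbl2 followed at 31.8 ± 2.98, 31.4 ± 3.44 and 27.3 ± 1.72 CPM per kb, whose ranges overlapped. Vps72 and Actr6 stood at 12.2 ± 0.26 and 11.7 ± 2.03 CPM per kb, and Dmap1, which contacts DNA methyltransferase 1, and Znhit1 at 7.76 ± 0.982 and 6.38 ± 0.656 CPM per kb. Srcap was lowest at 1.77 ± 0.419 CPM per kb of the 6045 countable bases, a divisor that leaves out junction reads and is therefore approximate. The rank also sets the 5′ part of the Srcap transcript beside the other subunits, which were counted over all their exons. What part this has in the low value of Srcap was not tested. Of the per-length sum of the 9, Yeats4 made up 30.3% to 32.3% and Srcap 0.754% to 1.15% in these 4 libraries. Srcap had the lowest share in all 24 libraries.

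**Figure D2:**
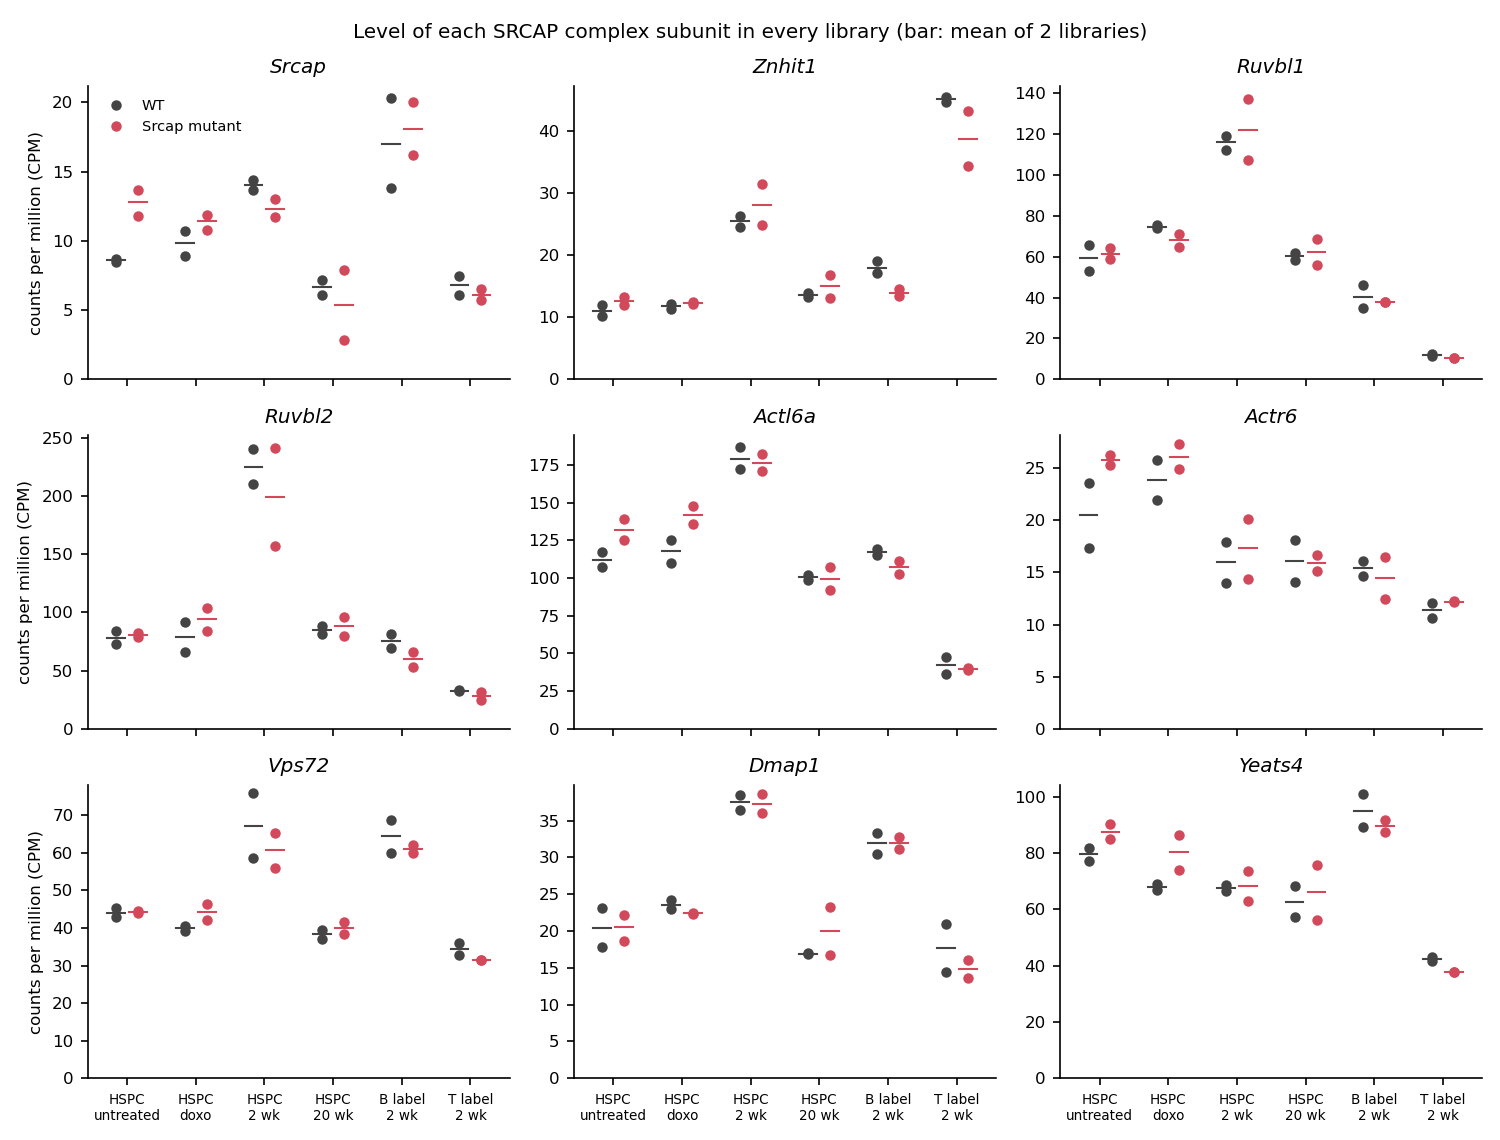
CPM of each subunit in every library (points), by cell label and condition, with WT in dark grey and Srcap mutant in red and short bars for the mean of 2 libraries; each axis starts at 0. The 2-week HSPC libraries are the highest of all for Ruvbl1, where the lowest of them is at 107.0 CPM, and the T-labelled libraries are the highest for Znhit1, from 34.4 to 45.5 CPM.

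The first question was whether the mutation changed the RNA of its own gene or of the partner subunits. No subunit was called different between genotypes in any cell label or condition. In untreated HSPCs 0 of 9 were called, as were 0.0% of all 19522 genes tested, and 0 of 9 at an unadjusted p below 0.05. Srcap had the largest estimate, with both mutant libraries (13.7 and 11.8 CPM) above both WT libraries (8.71 and 8.47 CPM) and a log2 change of 0.54 (95% interval -0.21 to 1.29, edgeR adjusted p = 1.0). Actl6a, Actr6 and Yeats4 likewise had both mutant libraries above both WT libraries in CPM, which makes 4 of 9, and the other 5 overlapped. Of all genes tested 24.2% separated in this direction, so with 2 libraries against 2 such a separation was common.

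Across the other conditions the estimate for Srcap kept no sign. It was 0.15 ± 0.36 (SE) after doxorubicin, -0.16 ± 0.36 at 2 weeks, -0.33 ± 0.36 at 20 weeks, 0.08 ± 0.25 in B-labelled and -0.08 ± 0.26 in T-labelled libraries. Averaged over the 4 HSPC conditions it was 0.05, with a 95% interval of -0.32 to 0.43 (edgeR adjusted p = 1.0). The 20-week value turns on 1 library: mutant replicate 1 held 2.83 CPM of Srcap (200 reads) and replicate 2 held 7.92 CPM, against 6.11 and 7.18 CPM in WT, and the log2 change was 0.26 ± 0.31 without mutant replicate 1. In that library the other 8 subunits, whose exons span 1415 to 3886 bases, were all higher than in replicate 2, for example Yeats4 at 75.8 against 56.2 CPM. Genes in general split by length there: replicate 2 minus replicate 1 had a median log2 difference of -0.29 for genes under 2 kb of exon and 0.49 for the 1038 genes of 10 kb and over. What part this has in the Srcap value was not tested.

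None of the partner subunits was called in the other HSPC conditions either. After doxorubicin 0 of 9 were called, beside 0.0154% of all genes, and the member estimates ran from -0.2 for Ruvbl1 to 0.21 for Actl6a. At 2 weeks 0 of 9 were called in HSPCs, beside 0.138% of all genes, with estimates between -0.16 and 0.17, and at 20 weeks 0 of 9 beside 0.00512%, with estimates between -0.33 and 0.2. In the mean over the HSPC conditions 0 of 9 were called, beside 0.133%, and the median of the 9 was 0.05 against -0.01 for all genes. None of these 5 HSPC comparisons put a subunit at an unadjusted p below 0.05, and DESeq2 also called 0 of 9 in each.

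In the B-labelled libraries 0 of 9 were called, beside 0.641% of all genes, and 1 was at an unadjusted p below 0.05. That 1 was Znhit1, the zinc finger HIT subunit, which stood at 14.5 and 13.5 CPM in the mutant against 17.1 and 19.0 CPM in WT, a log2 change of -0.36 ± 0.15 (edgeR adjusted p = 0.401). Ruvbl2 was at 53.2 and 66.2 CPM in the mutant against 81.5 and 69.0 CPM in WT, a log2 change of -0.34 ± 0.16 (adjusted p = 0.466). In both genes, and in Actl6a, each mutant library lay below each WT library in CPM, as did 20.8% of all genes, while the other 6 overlapped. In the T-labelled libraries 0 of 9 were called, beside 0.0114% of all genes, with estimates from -0.2 for Dmap1 to 0.17 for Actr6 and none at an unadjusted p below 0.05. In CPM both mutant libraries there lay below both WT libraries for 5 subunits (Znhit1, Ruvbl1, Ruvbl2, Vps72 and Yeats4) and above them for Actr6, which makes 6 of 9 separated, beside 36.8% of all genes in either direction. The median log2 change of all genes was -0.06 on that scale and 0.0 after TMM scaling. The 5 separations below WT were absent after TMM scaling. There 1 subunit, Actr6, had both mutant libraries above both WT libraries, 0 had them below, and 8 overlapped. The share of all genes separated after TMM scaling is not given. The largest 95% interval over the 9 subunits in the HSPC mean was that of Srcap, and for the other 8 its bounds lay between -0.18 and 0.35.

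Differences of the genotype effect between conditions or cell labels were tested in 9 contrasts, 6 of which were added after the values had been seen, and 0 of 9 subunits were called in each. Of all genes 0.0158% were called for B-labelled libraries minus HSPCs, 0.0105% for T-labelled libraries minus HSPCs, 0.0102% for doxorubicin minus 2 weeks and 0.00526% for B minus T, and 0.0% in the other 5 contrasts. The largest estimate was that of Srcap at 20 weeks minus untreated, -0.87 ± 0.51 (edgeR adjusted p = 1.0), which was -0.28 ± 0.4 without mutant replicate 1 of the 20-week group and -1.88 ± 0.42 (adjusted p = 0.0668) without its replicate 2. Znhit1 in B-labelled libraries minus HSPCs at 2 weeks had -0.48 ± 0.23 (adjusted p = 0.702). No contrast put a subunit at an unadjusted p below 0.05.

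**Figure D3:**
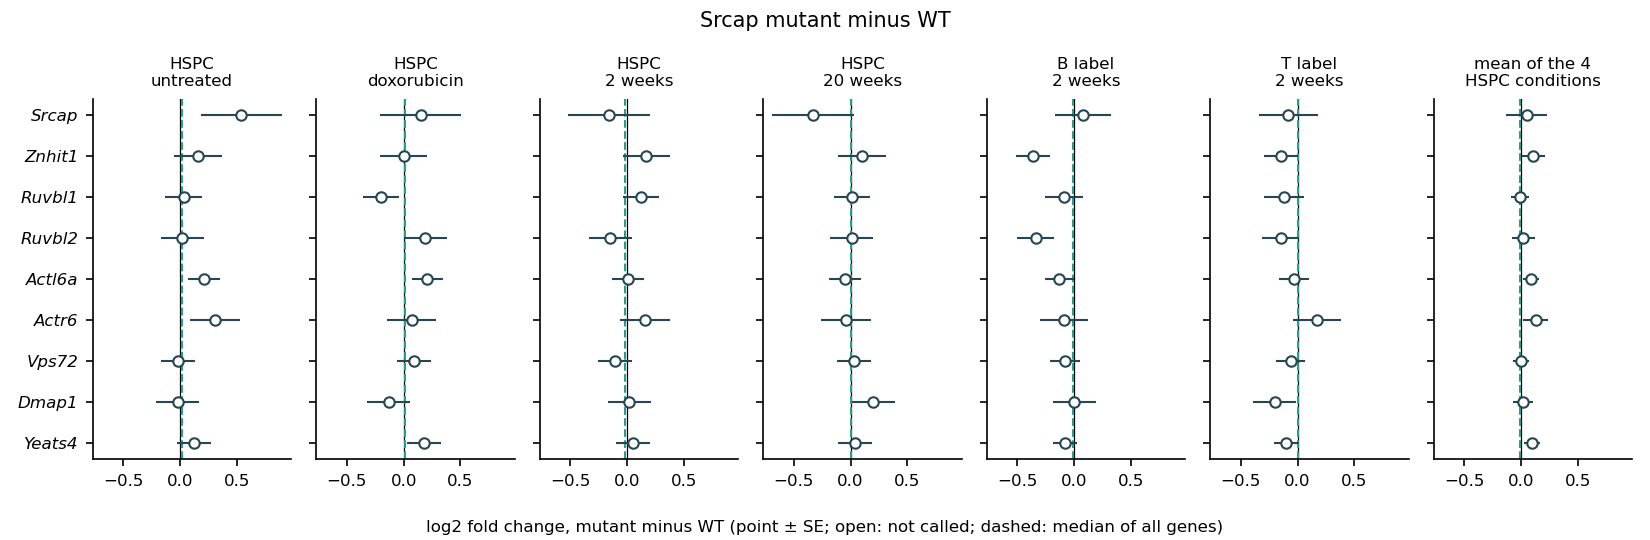
Log2 change of each subunit, Srcap mutant minus WT, with SE, in the 6 cell labels and conditions and in the mean of the 4 HSPC conditions; open points are not called and the dashed line is the median of all genes. All points are open, from -0.36 for Znhit1 in B-labelled libraries to 0.54 for Srcap in untreated HSPCs.

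No subunit was called different 12 hours after doxorubicin. The count was 0 of 9, beside 0.0154% of all genes, and the median log2 change of the 9 was 0.11 against 0.0 for all genes. Ruvbl1 came nearest, with 53.2, 65.5, 64.3 and 58.6 CPM in untreated libraries (WT, then mutant) and 75.4, 74.0, 71.1 and 64.7 CPM after the drug. The treated libraries lay higher with an overlap, and the log2 change of 0.26 ± 0.11 had an unadjusted p of 0.0334 and an edgeR adjusted p of 0.832. Over the 9, the 95% intervals reached from -0.49 to 0.56.

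Most subunits were higher in HSPCs 2 weeks after transplantation than in untreated HSPCs. Of the 9 subunits 6 were higher and 0 lower, beside 21.2% of all genes called higher and 24.9% lower, and the median log2 change was 0.63 for the 9 and -0.14 for all genes. Ruvbl2 had the largest change, followed by Znhit1 and Ruvbl1. Ruvbl2, at 83.7, 72.5, 78.8 and 82.3 CPM in untreated libraries, reached 240.0, 210.0, 157.0 and 241.0 CPM at 2 weeks, and Ruvbl1 went from 53.2 to 65.5 CPM up to 107.0 to 137.0 CPM. No 2-week library overlapped an untreated one for either gene. The log2 changes were 1.5 ± 0.14 for Ruvbl2 and 1.07 ± 0.11 for Ruvbl1 (edgeR adjusted p = 9.35e-08 and 4.69e-07).

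The promoters of these 2 genes and of Znhit1, the third subunit to more than double, are shown. They were picked because the 3 genes moved together in HSPCs and Znhit1 parted from the pair in T-labelled libraries. There Znhit1 was higher than in 2-week HSPCs, and Ruvbl1 and Ruvbl2 were both lower. Each line gives the 250 bases before an annotated start, from RefSeq on the GRCm38.p6 build, which is older than the build of the counts, 5′ to 3′ on the strand of the gene, with every match to 6 searched motifs in capitals. The first is Ruvbl1 at chr6:88465159-88465408 (plus strand), then Ruvbl2 at chr7:45434465-45434714 (minus strand), and then the 2 windows of Znhit1 at chr5:136986905-136987154 and chr5:136987960-136988209 (minus strand).
Ruvbl1: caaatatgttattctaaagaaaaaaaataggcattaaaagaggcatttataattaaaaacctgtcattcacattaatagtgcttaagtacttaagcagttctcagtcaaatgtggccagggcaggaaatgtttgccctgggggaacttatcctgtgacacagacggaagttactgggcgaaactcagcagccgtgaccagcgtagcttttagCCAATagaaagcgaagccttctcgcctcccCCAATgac
Ruvbl2: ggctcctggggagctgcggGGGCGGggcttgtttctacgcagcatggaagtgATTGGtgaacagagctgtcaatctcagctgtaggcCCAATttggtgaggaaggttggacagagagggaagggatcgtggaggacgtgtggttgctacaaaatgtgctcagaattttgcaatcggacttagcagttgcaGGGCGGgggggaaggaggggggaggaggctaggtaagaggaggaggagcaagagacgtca
Znhit1, first window: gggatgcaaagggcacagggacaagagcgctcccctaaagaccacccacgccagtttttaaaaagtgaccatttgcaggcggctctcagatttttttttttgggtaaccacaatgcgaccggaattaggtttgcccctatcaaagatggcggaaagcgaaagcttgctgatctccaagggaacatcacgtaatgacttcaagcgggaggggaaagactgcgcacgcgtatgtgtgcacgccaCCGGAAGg
Znhit1, second window: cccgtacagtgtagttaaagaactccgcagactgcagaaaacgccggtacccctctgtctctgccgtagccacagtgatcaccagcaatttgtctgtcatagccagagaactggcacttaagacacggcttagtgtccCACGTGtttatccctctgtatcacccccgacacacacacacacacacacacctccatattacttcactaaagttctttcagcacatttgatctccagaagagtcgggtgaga
The motifs were searched on both strands, and none contains another. Ruvbl1 and Ruvbl2 both hold the CCAAT box, searched by these letters, which 33.8% of all 32851 promoter windows of this length hold. Ruvbl2 also holds the GC box, GGGCGG, as do 32.7% of all windows. Znhit1 holds neither. Its first window has the ETS motif, CCGGAAG, held by 6.91% of all windows. Its second window has the E-box, CACGTG, held by 6.02%. The other motifs were the NRF1 site, held by 0.782% of all windows and among the subunits by Yeats4, and the cyclic AMP response element, TGACGTCA, held by 1.55% and by 0 subunits. Among the 8 subunits with a window, 4 had the CCAAT box, 3 the GC box, 3 the ETS motif and 1 the E-box. A subunit was counted if any of its windows held the motif, and Znhit1 and Actr6 have more than 1 window. These counts are therefore not on the per-window scale of the percentages. A match describes these letters only.

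The 3 subunits that belong to the SRCAP complex itself did not move as a block at 2 weeks. Znhit1 was at 10.2 to 13.2 CPM in untreated libraries and at 26.4, 24.5, 24.8 and 31.4 CPM at 2 weeks, without overlap, a log2 change of 1.26 ± 0.15 (edgeR adjusted p = 1.42e-06). Srcap was at 8.47 to 13.7 CPM and then at 11.7 to 14.4 CPM, which overlapped, a log2 change of 0.41 ± 0.25 that was not called (adjusted p = 0.192). Actr6, an actin-related protein that contacts the nucleosome, had the lower values at 2 weeks, with 14.0 to 20.1 CPM against 17.3 to 26.3 CPM and a log2 change of -0.38 ± 0.15 (adjusted p = 0.051). Its call depended on the setting: it was called lower at -0.39 by DESeq2 (adjusted p = 0.0364), at -0.39 with RLE size factors, at -0.47 with total count scaling and at -0.41 without immunoglobulin and neutrophil genes, and also without WT untreated replicate 1 (-0.48) or mutant 2-week replicate 1 (-0.56).

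Of the subunits shared with TIP60-p400 and other complexes, 5 of 6 were called higher, beside 21.2% of all genes called higher and 24.9% lower. Dmap1 was at 17.8 to 23.1 CPM untreated and 36.0 to 38.6 CPM at 2 weeks, a log2 change of 0.96 ± 0.13, Actl6a at 107.0 to 139.0 and then 171.0 to 187.0 CPM, a change of 0.63 ± 0.10, and Vps72 at 43.0 to 45.3 and then 55.9 to 75.9 CPM, a change of 0.61 ± 0.11. No 2-week library overlapped an untreated one in these 3 genes. Yeats4 was the exception, with 77.1 to 90.4 CPM untreated and 63.0 to 73.6 CPM at 2 weeks and a log2 change of -0.21 ± 0.11 (edgeR adjusted p = 0.116), which was called at -0.31 without mutant 2-week replicate 1 and at -0.30 with total count scaling. The share of Yeats4 in the per-length sum of the 9 went from a median of 31.1% to 16.5%, while that of Ruvbl2 went from 14.0% to 26.8%. Cell division markers were higher too, 9 of 10 being called higher at 2 weeks, beside 21.2% of all genes, with a median log2 change of 0.52. These markers summed to 2819 to 4441 CPM against 1998 to 2952 CPM in untreated libraries, with Plk1 at 1.27. Other cell markers also differed in these libraries. The 7 erythroid genes summed to 245.8 to 982.9 CPM at 2 weeks against 13.4 to 224.4 CPM untreated, with Klf1, an erythroid transcription factor, at 83.1 to 109.0 against 1.04 to 2.39 CPM. The 7 HSPC markers summed to 1123 to 1539 against 2550 to 3236 CPM, with Hlf, a stem cell transcription factor, at 53.7 to 61.4 against 393.0 to 601.0 CPM. Plasma cell genes summed to 567.2 to 1171 against 3488 to 6894 CPM, and neutrophil genes to 994.8 to 3541 CPM at 2 weeks. The part of these markers in the subunit values was not tested.

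**Figure D4:**
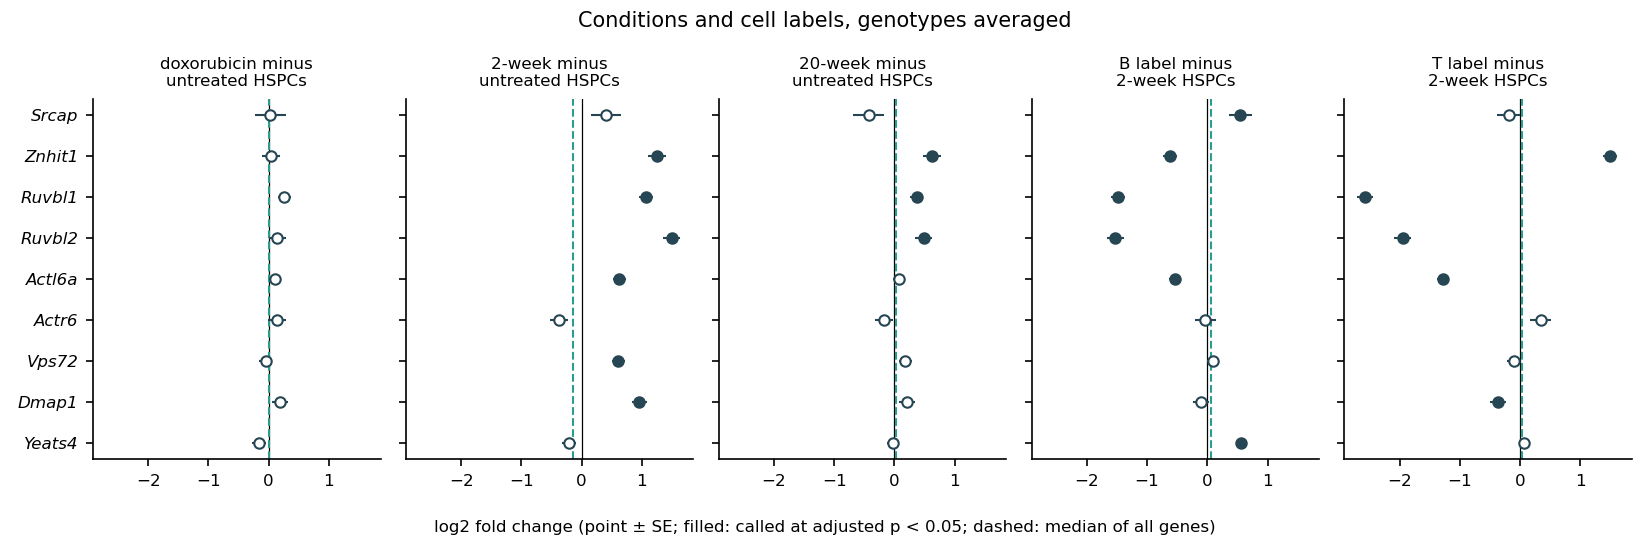
Log2 change of each subunit with SE for doxorubicin, 2 weeks and 20 weeks against untreated HSPCs and for B-labelled and T-labelled libraries against 2-week HSPCs, genotypes averaged; filled points are called and the dashed line is the median of all genes. Ruvbl1 and Ruvbl2 are at 1.07 and 1.5 at 2 weeks and at -2.57 and -1.95 in T-labelled libraries, where Znhit1 is at 1.49.

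At 20 weeks after competitive transplantation fewer subunits stood apart from untreated HSPCs, and the calls rested on the scaling. Znhit1 (0.63 ± 0.15), Ruvbl2 (0.49 ± 0.14) and Ruvbl1 (0.37 ± 0.11) were called higher, 3 of 9 beside 13.1% of all genes called higher, and 0 were lower beside 10.6%. Their CPM values before TMM scaling overlapped: Ruvbl1 had 53.2 to 65.5 CPM untreated and 55.9 to 68.4 CPM at 20 weeks, Ruvbl2 72.5 to 83.7 and 80.1 to 95.9 CPM, and Znhit1 10.2 to 13.2 and 13.1 to 16.9 CPM. Scaling by total count alone moved the median of all genes from 0.02 to -0.33, and with it 0 of the 9 were called higher and 4 lower: Srcap (-0.81), Actr6 (-0.52), Yeats4 (-0.38) and Actl6a (-0.28). The shares of all genes above are from the TMM fit, so the counts under total count scaling have no such share beside them. Plasma cell genes moved with this group, 5 markers summing to 11070 to 16780 CPM at 20 weeks against 3488 to 6894 CPM untreated. HSPC markers summed to 1814 to 2133 against 2550 to 3236 CPM, and 5 of 10 division genes were called lower and 0 higher. Their part in the subunit values was not tested. In the TMM fit Srcap had the lowest value, -0.43 ± 0.25 (adjusted p = 0.233). Without mutant replicate 1 the number called was 1 and the Srcap value -0.14 ± 0.20, without WT replicate 2 the number was 1, and without 1 untreated library it was 2 in each of 4 fits. Only Znhit1 was called in all 8 of the fits that left out 1 library, and Srcap was called lower (-0.94) without mutant replicate 2.

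The 2 transplanted sets, which were both compared with the same untreated libraries above, were also compared with each other. Of the 9 subunits 7 were higher at 2 weeks than at 20 weeks, beside 19.0% of all genes called higher and 23.0% lower. Ruvbl2 led with a log2 difference of 1.01 ± 0.14, and Srcap followed with 0.85 ± 0.25 (edgeR adjusted p = 0.0115). Srcap held 6.11, 7.18, 2.83 and 7.92 CPM at 20 weeks and 11.7 to 14.4 CPM at 2 weeks, with no overlap, and the difference was 0.55 ± 0.20 (adjusted p = 0.0422) without mutant replicate 1 and 0.75 (adjusted p = 0.0525) without WT replicate 1 of the 20-week group. Actr6 (-0.21) and Yeats4 (-0.18) were the 2 not called, and their estimates turned positive under total count scaling, to 0.05 and 0.08. Division genes moved the same way, 9 of 10 being called higher at 2 weeks with a median log2 difference of 0.87, beside 0.63 for the 9 subunits. Plasma cell genes summed to 567.2 to 1171 CPM at 2 weeks against 11070 to 16780 CPM at 20 weeks, neutrophil genes to 994.8 to 3541 against 30.4 to 110.8 CPM, and erythroid genes to 245.8 to 982.9 against 50.4 to 117.3 CPM. Their part in the subunit values was not tested. Xist, the header directory and the kind of transplantation differ between these sets together with time.

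Between cell labels at 2 weeks the subunits went separate ways. In B-labelled libraries 4 of 9 were lower than in HSPCs, beside 25.5% of all genes, and 2 were higher, beside 28.3%. The ATPase pair was lowest: Ruvbl1 was at 45.9, 34.8, 37.9 and 37.9 CPM and Ruvbl2 at 81.5, 69.0, 53.2 and 66.2 CPM, all below every 2-week HSPC library, with log2 differences of -1.48 ± 0.12 and -1.53 ± 0.14. Znhit1 (-0.62 ± 0.12) and Actl6a (-0.54 ± 0.09) were also lower. Yeats4 was higher, at 87.4 to 101.0 CPM against 63.0 to 73.6 CPM, a log2 difference of 0.56 ± 0.09 (edgeR adjusted p = 0.000135). Srcap was higher as well, with 20.3, 13.8, 16.2 and 20.0 CPM against 11.7 to 14.4 CPM, but 1 B-labelled library lay inside the HSPC range. Its log2 difference of 0.55 ± 0.19 (adjusted p = 0.0243) was 0.42 with adjusted p = 0.0733 under total count scaling and 0.55 with adjusted p = 0.0691 when all 24 libraries shared 1 fit. It was also not called without HSPC WT replicate 1 (0.56) or 2 (0.54), B-labelled WT replicate 1 (0.39) or B-labelled mutant replicate 2 (0.45). Actr6, Vps72 and Dmap1 had log2 differences of -0.03, 0.10 and -0.10, with 95% intervals from -0.41 to 0.35, -0.12 to 0.32 and -0.38 to 0.18. Of 10 division genes 6 were called higher, beside 28.3% of all genes, and 0 lower, beside 25.5%, with a median log2 difference of 0.29. Erythroid genes summed to 6145 to 16370 CPM in the B-labelled libraries against 245.8 to 982.9 CPM in 2-week HSPCs. Neutrophil genes summed to 3503 to 12660 against 994.8 to 3541 CPM. The part of these markers in the subunit values was not tested.

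In T-labelled libraries Znhit1 and Ruvbl1 stood at opposite ends of their ranges. Znhit1 reached 45.5, 44.7, 43.2 and 34.4 CPM, the highest levels of any cell label or condition, while Ruvbl1 was at 12.4, 11.5, 10.4 and 10.6 CPM, the lowest. Neither range touched that of 2-week HSPCs. The log2 differences from 2-week HSPCs were 1.49 ± 0.12 for Znhit1 and -2.57 ± 0.13 for Ruvbl1 (edgeR adjusted p = 5.24e-08 and 3.22e-10). Ruvbl2 (-1.95 ± 0.14), Actl6a (-1.28 ± 0.10) and Dmap1 (-0.37 ± 0.13) were lower too, which makes 4 of 9 lower beside 29.3% of all genes and 1 higher beside 32.6%. The Dmap1 value was not called without 2-week HSPC WT replicate 1 (-0.36) or 2 (-0.38), T-labelled WT replicate 2 (-0.25) or T-labelled mutant replicate 2 (-0.31), and Actr6 was called higher (0.49) without 2-week HSPC mutant replicate 1. The values depended on scaling here: with total counts alone the median of all genes moved from 0.03 to -0.79, Znhit1 stayed higher at 0.65 (adjusted p = 0.000407), and the other 8 were all called lower, from -0.50 for Actr6 to -3.41 for Ruvbl1. Under that scaling Actr6 and Yeats4, at 0.34 and 0.07 in the TMM fit and not called there, changed sign. In the comparison of B-labelled with T-labelled libraries 5 subunits were higher in B, beside 27.0% of all genes, and 1 lower, beside 25.9%, with log2 differences (B minus T) of 1.09 ± 0.12 for Ruvbl1 and -2.11 ± 0.12 for Znhit1. There Ruvbl2 (0.42 ± 0.13) was not called without B-labelled WT replicate 1 (0.36), B-labelled mutant replicate 2 (0.34) or T-labelled mutant replicate 2 (0.33), and Dmap1 was called (0.41) without T-labelled WT replicate 1. Total count scaling moved the median of all genes from 0.16 to 0.86 and called 7 higher, adding Vps72 (0.93) and Dmap1 (0.98), with Ruvbl2 at 1.14 and Znhit1 at -1.40. The shares of all genes are from the TMM fit here too, and the counts under total count scaling have none beside them. These 3 contrasts share libraries. In the TMM fit 3 of 10 division genes were called higher in T-labelled libraries than in 2-week HSPCs, beside 32.6% of all genes. Another 3 were lower, beside 29.3%. Between B and T 8 of 10 were higher in B, beside 27.0%, and 0 lower, beside 25.9%. Erythroid genes summed to 2871 to 9460 CPM in T-labelled libraries against 245.8 to 982.9 CPM in 2-week HSPCs. The part of these markers in the subunit values was not tested.

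Ratios between subunits within a library do not depend on scaling, and they separated the T-labelled libraries from all others. Per length, the ratio of Znhit1 to Ruvbl1 had a median of 0.193 in untreated HSPCs, 0.17 after doxorubicin, 0.225 at 2 weeks, 0.242 at 20 weeks and 0.386 in B-labelled libraries. In T-labelled libraries it was 3.87, with a range of 3.31 to 4.23, and the highest value in any other library was 0.557. Znhit1 made up 20.4% to 23.6% of the per-length sum of the 9 in T-labelled libraries, against 3.99% to 5.23% in B-labelled libraries and 4.71% to 5.87% in 2-week HSPCs. The ratio of Ruvbl1 to Ruvbl2, whose proteins form a joint ring, stayed between 0.498 and 1.74 in all 24 libraries, with medians of 0.554 in T-labelled libraries and 1.20 after doxorubicin. This is a description of 4 libraries per cell label and condition.

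**Figure D5:**
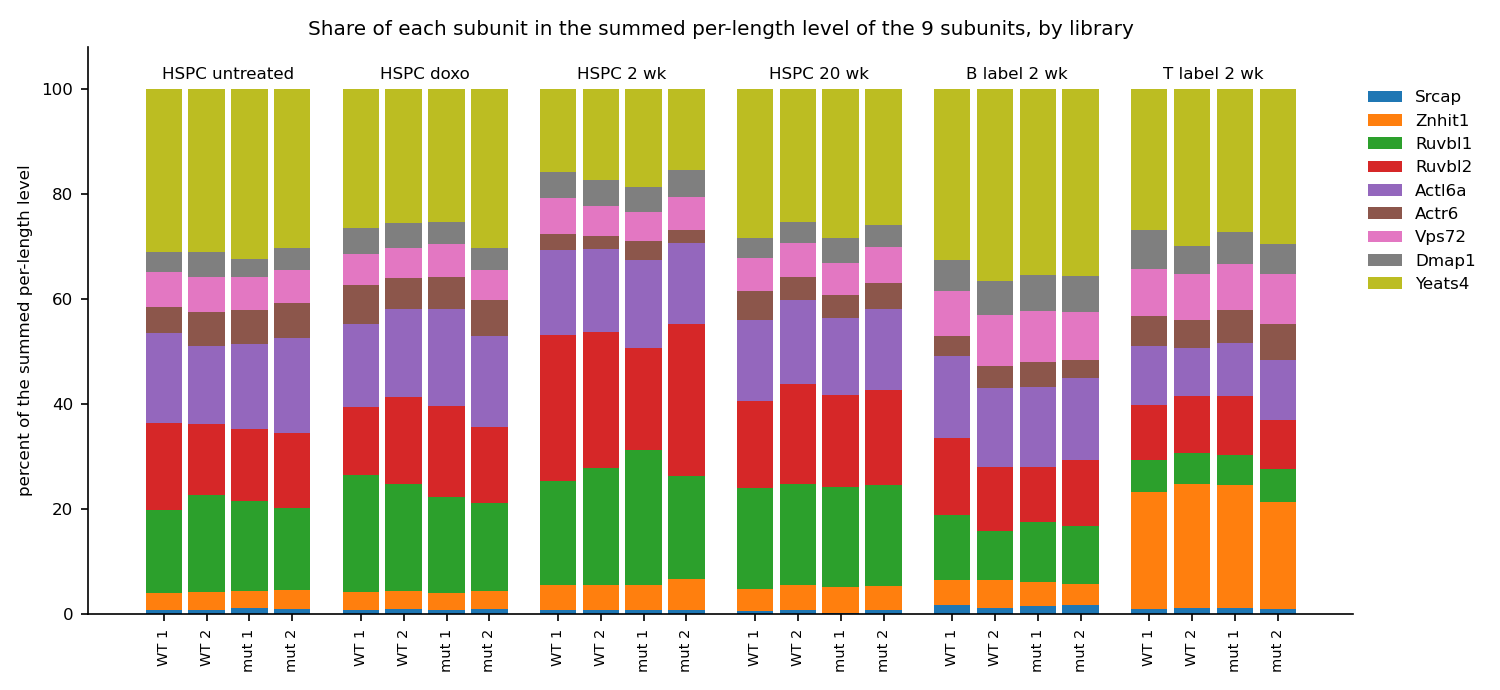
Share of each subunit in the summed per-length level of the 9 subunits, in percent, for each of the 24 libraries; bars add up to 100. Znhit1 (orange) fills 20.4% to 23.6% in the T-labelled libraries and at most 5.87% elsewhere, and Yeats4 (olive) shrinks to 15.5% to 18.6% in 2-week HSPCs.

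Ordered by CPM without TMM scaling, the subunits fell into different patterns over the 6 cell labels and conditions. Under total count scaling the median log2 difference of all genes was -0.79 for T-labelled libraries against 2-week HSPCs, and 0.03 after TMM scaling. For 20-week against untreated HSPCs it was -0.33 and 0.02. Low places of these sets carry that shift too. Ruvbl1, Ruvbl2, Actl6a and Dmap1 were highest in 2-week HSPCs, with ranges that did not overlap the next set, and lowest on average in T-labelled libraries, where Dmap1 still overlapped 20-week HSPCs. For Actr6 the first 5 places, from doxorubicin-treated HSPCs at 25.0 ± 2.3 CPM (SD, n = 4) to B-labelled libraries at 15.0 ± 1.83 CPM, overlapped from each to the next. The T-labelled libraries were apart at 11.8 ± 0.797 CPM. After TMM scaling the Actr6 estimate in T-labelled libraries was above 2-week HSPCs, at a log2 difference of 0.34 ± 0.18 (SE) that was not called. Vps72 had 2-week HSPCs (64.0 ± 8.93 CPM) and B-labelled libraries (62.8 ± 4.17 CPM) at the top, with overlapping ranges, and above the rest. Srcap ranged from 17.6 ± 3.11 CPM in B-labelled libraries to 6.01 ± 2.25 CPM in 20-week HSPCs, and the only gap between neighbours was the one below doxorubicin-treated HSPCs at 10.6 ± 1.25 CPM.

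As a description over the 24 libraries, which share cell labels and conditions, log2 levels of Ruvbl1 and Actl6a had a Pearson correlation of 0.91, Vps72 and Dmap1 of 0.86, and Ruvbl1 and Ruvbl2 of 0.83, while Actr6 and Vps72 had -0.69. Srcap correlated at most at 0.56 with another subunit (Vps72). Znhit1 and Ruvbl1 had 0.88 over the 16 HSPC libraries and -0.61 over all 24. Over the 12 group means, the genes with patterns most like that of Srcap among 9842 genes of sufficient level were Usp16 and Mtbp (0.938 each) and Aspm (0.936), and those most like the mean of the 9 subunits were Samd1 (0.987), Pdap1 (0.986) and Lig1 (0.983).

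Other complexes that use these subunits gave a backdrop for the shared members. At 2 weeks against untreated HSPCs, where 21.2% of all genes were higher and 24.9% lower, 6 of 12 INO80 subunits were higher and 1 lower, with Ino80e at 0.91 ± 0.11 and Mcrs1 at 0.79 ± 0.14, and 5 of 8 R2TP genes were higher and 1 lower, with Znhit2, a cofactor of the chaperone, at 1.06 ± 0.24. The TIP60-p400 list was close to that background, 3 of 12 higher and 4 lower, with its ATPase Ep400 at 0.78 ± 0.13 and Epc1 at -0.51 ± 0.11. Of 5 genes for H2A.Z and its chaperones 2 were higher, H2afz at 0.55 ± 0.12 and Nap1l4 at 0.46 ± 0.09, and of 6 tested BAF genes 3 were, led by the ATPase Smarca4 at 0.70 ± 0.15. The medians were 0.40, 0.52, -0.07, 0.20 and 0.39 in this order of lists, beside 0.63 for the SRCAP subunits and -0.14 for all genes.

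In T-labelled libraries against 2-week HSPCs, where 32.6% of all genes were higher and 29.3% lower, 4 of 8 R2TP genes were lower and 1 higher, with Telo2 at -2.17 ± 0.15 and Rpap3 at -2.10 ± 0.13, beside Ruvbl1 and Ruvbl2. Of the 6 BAF genes 5 were lower, led by Smarcc1 at -2.00 ± 0.12, beside Actl6a. The TIP60-p400 list had 6 of 12 higher and 4 lower. Its largest change was Morf4l2 at -1.26 ± 0.09, followed by Epc1 at 1.21 ± 0.09 and its acetyltransferase Kat5 at 1.13 ± 0.11. INO80 had 3 of 12 in each direction, near the background. Of the 5 H2A.Z genes 3 were lower and 1 higher, the lowest being Nap1l1 at -1.39 ± 0.10 and Anp32e, which removes H2A.Z, at -0.87 ± 0.12. These counts are from the TMM fit, and the lists were not refitted under total count scaling. In the genotype comparisons 0 genes of these 5 lists were called in any cell label or condition, beside 0.0% to 0.641% of all genes.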

How the data were processed

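RNA was sequenced from 24 libraries (TruSeq stranded mRNA, per the labels' protocols). The deposited files hold whole-number read counts per gene, made by the authors with featureCounts 2.0.1 on paired reads in reverse-stranded mode, by exon, on the GENCODE M28 annotation of GRCm39, per the file headers. STAR, FastQC and Subread are named without versions in the submitters' processing notes. From these counts, CPM used the total of all genes, and per-length levels divided CPM by exon length in kb (for Srcap, by the bases it does not share).

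Tests used edgeR 4.0.16 (R 4.3.3): TMM scaling, filterByExpr (minimum count 10, minimum total 15), robust quasi-likelihood fits with 1 mean per group, and Benjamini-Hochberg adjustment over all genes tested (threshold 0.05). The 16 HSPC libraries shared a fit (19522 genes), as did the 8 B-labelled and T-labelled libraries for genotype (17484 genes) and the 12 libraries at 2 weeks for cell labels (19018 genes). Alternatives were DESeq2 1.42.0, other scalings, no filter, narrower and wider fits, a replicate block and leaving out each library. The scripts were tested on simulated data.

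All 9 subunits are reported. Beside them, 5 lists (H2A.Z and chaperones, TIP60-p400, INO80, R2TP, BAF) and lists of cell type markers were used, with up to 3 genes per list and comparison named by the largest change among those called. Members and lists were chosen with earlier results of these data known. Likeness is Pearson correlation of log2(TMM-scaled CPM + 1) over group means, for genes averaging at least 3 on that scale. The correlations between subunits and the differences by gene length used the same scale. Intervals and p-values cover the spread between libraries, which may be technical. Promoter windows come from RefSeq (GRCm38.p6), where 8 of the 9 subunits had an entry.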

Additional observations from a re-analysis of the deposited data

Results flagged for a closer look

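The genotype effect on Srcap pointed in opposite directions in untreated HSPCs and in HSPCs 2 weeks after transplantation. Both mutant libraries lay above both WT libraries in the first (13.7 and 11.8 against 8.71 and 8.47 CPM) and below them in the second (11.7 and 13 against 14.4 and 13.7 CPM). Of all genes tested 24.2% separated upward in the untreated libraries. The share at 2 weeks and after doxorubicin is not given. The difference of the 2 effects, 2 weeks minus untreated, was -0.70 on the log2 scale (SE 0.50), which edgeR did not call (unadjusted p = 0.181, adjusted p = 0.804). It was -0.73 without WT untreated replicate 1, the library with high neutrophil genes, and ran from -0.82 to -0.59 over the fits that left out 1 library each. In CPM, though not after TMM scaling, Srcap also separated upward in mutants after doxorubicin, and the effect there minus that at 2 weeks was 0.31 (SE 0.50, edgeR adjusted p = 0.867).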

How the results depend on the processing

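In the 6 comparisons that called any subunit, the number called stayed within 1.5 times its main value in 90 of 93 alternatives. The exceptions were the T-labelled comparison with HSPCs under total count scaling (9 called against 5) and 20 weeks against untreated, where leaving out 1 library gave 1 to 4 against 3. The number called does not track which subunits were called or in which direction. At 20 weeks against untreated, total count scaling kept the number close but called none of Znhit1, Ruvbl1 and Ruvbl2. It called Srcap, Actr6, Yeats4 and Actl6a lower instead. Nor is the number set beside the share of all genes called in each setting. In the other 17 comparisons the count was 0 as reported and in all 241 alternatives, which shows little about stability. Total count scaling reversed the sign of Actl6a (-0.28), Vps72 (-0.18) and Dmap1 (-0.15) at 20 weeks against untreated, of Actr6 (0.05) and Yeats4 (0.08) at 2 against 20 weeks, of Vps72 in B-labelled libraries against HSPCs (-0.03), of Actr6 (-0.50) and Yeats4 (-0.76) in T-labelled libraries against HSPCs, of Actr6 between B and T (0.34), and of the genotype effects on Dmap1 (0.0) and Vps72 (0.01) untreated, Actl6a (-0.02) and Dmap1 (-0.01) at 2 weeks and Ruvbl1 in the HSPC mean (0.01). It also reversed 12 differences of genotype effects, to values between -0.07 and 0.09. Yeats4 in T-labelled libraries was -0.01 without immunoglobulin and neutrophil genes and -0.01 with the compared groups alone. The cause was not tested.

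For genotype and doxorubicin effects, alternatives other than total count scaling were followed for Srcap and the subunits with the lowest and highest value, and for added contrasts for Srcap alone. Leaving out 1 library turned the sign of these: Dmap1 untreated (-0.2 to 0.18), Srcap at 20 weeks (-1.34 to 0.26), Srcap (-0.2 to 0.2) and Ruvbl1 (-0.08 to 0.04) in the HSPC mean, Srcap in B-labelled (-0.16 to 0.4) and T-labelled (-0.16 to 0.14) libraries, and Dmap1 in T-labelled libraries (-0.37 to 0.15). It also turned Actl6a (-0.01 to 0.11) and Yeats4 (-0.11 to 0.05) at 20 weeks against untreated and Actr6 in B-labelled libraries against HSPCs (-0.15 to 0.13). Among differences of genotype effects it turned Ruvbl2, doxorubicin minus untreated (-0.04 to 0.42), and Srcap, 2 minus 20 weeks (-0.43 to 1.17), doxorubicin minus 20 weeks (-0.11 to 1.49) and B minus T (-0.16 to 0.42).

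With the replicate number as a block, the number called was the same in all 23 comparisons (6 at 2 weeks and 3 at 20 weeks against untreated, 0 for each genotype effect). The labels name no pairs, and correlations of replicate differences between the 2 genotypes ran from -0.17 to 0.168. With 2 libraries a group, each interval rests on a spread shared over groups, and a lone library left in a group is assumed to vary like the others. The fit of the compared groups alone was not run for the HSPC mean, where it is the same fit.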
